A study of Arabidopsis thaliana with 24 samples.

Results

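SWEET proteins are sugar carriers of the plasma membrane and the vacuole, and their transcripts were followed over 4 times of day in Arabidopsis rosettes with and without a shortage of water. Members were the probe sets assigned to exactly 1 gene whose symbol begins with SWEET. There were 15 of them among 22746 probe sets that were not controls, 14 for SWEET transporters and 1 for SWEETIE, which shares only the letters of the name. Of the 14 transporter genes, 6 were bright enough to be tested, namely SWEET1, SWEET2, SWEET4, SWEET11, SWEET13 and SWEET17. SWEETIE was tested as well, so that 7 of the 15 members were among the 11926 probe sets tested, and the counts below are over the 6 transporters.

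The samples were whole rosettes of wild-type Columbia-0 plants aged 32 days, which grew with a photoperiod of 12 h. In the water-limited regime water was withheld for the last 4 days, after 28 days of watering, and well-watered plants were watered to the end. Harvests of each regime fell at 12 h (midday), 18 h (late day), 0 h (midnight) and 6 h (pre-dawn), and each of the 8 groups has 3 Affymetrix arrays that the labels call biological replicates. The labels do not say how many plants went into an array or whether replicates came from separate growth runs.

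SWEET proteins let sugars cross a membrane down their concentration gradient, in either direction and without coupling to protons. In leaves, SWEET11 and its close relatives release sucrose from phloem parenchyma cells, after which proton-coupled SUC carriers load it into the phloem for export to roots and growing organs. Other members carry glucose or fructose, and some sit in the vacuolar membrane, where they take part in the storage and release of sugars over the day. A whole rosette mixes all leaf cell types, so that fewer cells of a type and less RNA per cell cannot be told apart.

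Values are log2 GCRMA values, the scale on which the authors deposited them, and a step of 1 is a doubling. Array medians lay between 4.66 and 4.86 log2, and 25.5% of all values lay within 0.001 of the lowest value in the table, 2.20 log2. A level is compared only with levels of the same probe set, since probe sets of different genes differ in brightness for technical reasons. Changes are water-limited minus well-watered, means are given ± SD over n = 3 arrays, the SE is that of a fit to the 24 arrays together, and the adjusted p, from limma, covers all probe sets tested, with 0.05 as the threshold. The leaf antenna genes LHCB4.2 and LHCB4.3 spanned 11.6 to 14.0 and 8.27 to 10.1 log2. At pre-dawn LHCB4.2 fell by 0.57 log2 (adjusted p by limma = 0.0364) and LHCB4.3 rose by 0.66 (adjusted p = 0.0189), and LHCB4.3 also rose by 0.55 in the mean of the times (adjusted p = 0.000522). Of the root markers, the root hair expansin gene EXPA7 did not exceed 2.28 log2, while PYK10, a beta-glucosidase gene of roots and seedlings, spanned 4.59 to 8.04 log2, with a late-day change of −1.99 that did not pass (adjusted p by limma = 0.193). The tapetum gene AT5G07230 (A9), which was not tested, lay between 2.98 and 5.89 log2 in the 9 water-limited arrays of late day, midnight and pre-dawn, and between 2.23 and 3.59 log2 in the 9 well-watered ones. At midday the order was reversed, with 2.29 to 2.91 log2 on the water-limited and 2.98 to 3.61 log2 on the well-watered arrays. The part of these marker differences in the results below was not tested.

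SWEET13 (AT5G50800, probe set 248467_at), a sucrose carrier of the same clade as SWEET11 that also transports gibberellins, had higher means under water limitation at all 4 times, and passed the threshold at pre-dawn and in the mean of the times. At midday it had 7.47, 6.24 and 6.68 log2 on the water-limited arrays, against 6.69, 6.32 and 4.81 log2 on the well-watered arrays. At late day it had 7.58, 7.54 and 7.61 log2 in water-limited plants, against 7.11, 6.25 and 6.33 log2 in well-watered plants. The midday arrays of the regimes overlapped and the late-day arrays did not, and the 3 water-limited late-day arrays lay within 0.1 log2 of each other.

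At midnight SWEET13 had 9.42, 9.01 and 9.16 log2 in water-limited plants, against 5.94, 7.66 and 8.30 log2 in well-watered plants. At pre-dawn it had 9.04, 7.84 and 9.15 log2 in water-limited plants, against 6.40, 7.52 and 4.55 log2 in well-watered plants. The arrays did not overlap at either of these times, and the well-watered arrays were the more scattered, with an SD of 1.22 at midnight and 1.50 at pre-dawn, where the water-limited arrays had 0.21 and 0.73.

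**Figure D1:**
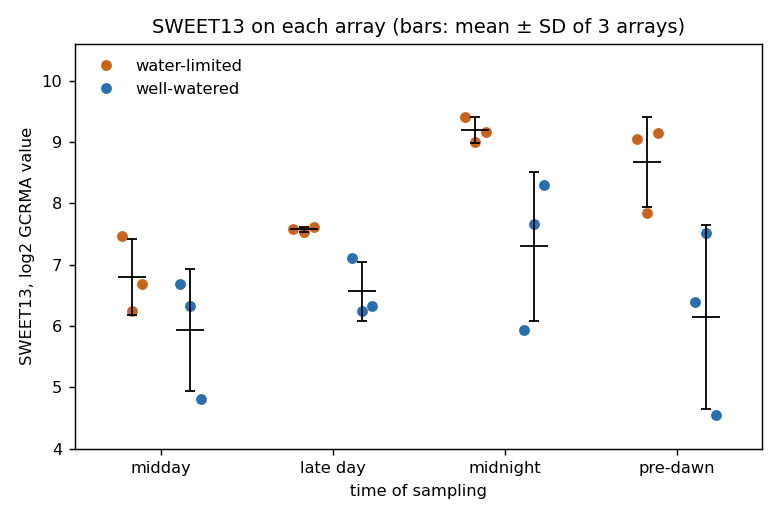
SWEET13 on each of the 24 arrays as log2 GCRMA values (vertical axis) by time of sampling (horizontal axis), with water-limited arrays in orange and well-watered arrays in blue; black bars are the mean ± SD of 3 arrays. The midnight arrays of water-limited plants lie between 9.01 and 9.42 log2, above the 3 well-watered arrays of that time, which span 5.94 to 8.30.

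The change of SWEET13 was 0.86 log2 at midday and 1.01 at late day, or 1.81- and 2.02-fold. It was 1.90 log2 at midnight and 2.52 at pre-dawn, or 3.72- and 5.75-fold, and the SE was 0.63 at each time. The adjusted p by limma was 0.997, 0.663, 0.172 and 0.0196 in that order, so that only the pre-dawn change passed. All 3 water-limited arrays lay above the well-watered mean of their own time at each of the 4 times, 12 of 12 in all. Averaged over the times SWEET13 was higher by 1.57 log2 (SE 0.31, 2.97-fold, adjusted p by limma = 0.00359), with a mean of 8.06 log2 in water-limited plants and 6.49 log2 in well-watered plants.

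The order of these changes does not show that the effect of water differed over the day. The largest difference, pre-dawn minus midday, was 1.66 log2 (SE 0.88, adjusted p by limma = 0.424), and the F-test over the 4 times gave an adjusted p of 0.708. The pre-dawn call depended on single arrays. It was lost without water-limited pre-dawn replicate 1 or 3 and without well-watered pre-dawn replicate 1 or 3. Over all arrays left out in turn the adjusted p by limma was at most 0.131 and the change between 1.72 and 3.20 log2. Calls over all probe sets tested fell too, from 864 at pre-dawn to 186 without well-watered pre-dawn replicate 1 and 245 without replicate 3. Without water-limited pre-dawn replicate 1 there were 91. The average over the times held without any one array, with an adjusted p between 0.000937 and 0.00964.

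Among the GAPDH, actin and ubiquitin controls of RNA quality, GAPDH alone separated the regimes at pre-dawn. The GAPDH control probe set at the 3-prime end exceeded the one at the 5-prime end by 1.598, 1.639 and 1.583 log2 on the water-limited pre-dawn arrays, against 1.309, 1.466 and 1.477 on the well-watered ones. The regimes overlapped there for actin (4.63, 4.40 and 4.72 water-limited, 4.34, 4.44 and 4.41 well-watered). They also overlapped for ubiquitin (1.10, 1.14 and 1.06 water-limited, 1.16, 1.11 and 1.23 well-watered), which leaned the other way. At late day GAPDH separated the regimes as well (1.508, 1.747 and 1.504 water-limited, 1.456, 1.378 and 1.262 well-watered). So did actin (4.14, 4.25 and 4.02 water-limited, 3.80, 3.88 and 3.93 well-watered), while ubiquitin overlapped. None of these controls separated the regimes at midday or midnight. With the GAPDH, actin and ubiquitin differences as covariates, the change of SWEET13 was 2.28 log2 at pre-dawn (adjusted p by limma = 0.147) and 1.42 in the mean of the times (adjusted p = 0.0353).

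Within a regime, SWEET13 differed between times in water-limited plants (F-test of limma, adjusted p = 0.0116) and did not pass in well-watered plants (adjusted p = 0.239). Water-limited plants had their highest mean at midnight, 9.20 ± 0.21 log2, followed by pre-dawn with 8.68 ± 0.73, late day with 7.58 ± 0.035 and midday with 6.80 ± 0.62. Midnight exceeded midday by 2.40 log2 (adjusted p by limma = 0.00746) and late day by 1.62 (adjusted p = 0.0498), and pre-dawn exceeded midday by 1.88 (adjusted p = 0.0396). Neighbours in that order were not told apart for midnight and pre-dawn (adjusted p = 0.626), pre-dawn and late day (0.161), or late day and midday (0.391). Well-watered plants had the same highest and lowest time, with 7.30 ± 1.22 log2 at midnight and 5.94 ± 0.99 at midday, a range of 1.36 log2 in which no pair of times passed. The well-watered range passed once well-watered midnight replicate 1 was left out (adjusted p by limma = 0.0477).

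SWEET11 (AT3G48740, 252327_at), the sucrose exporter of phloem parenchyma cells, did not pass the test for water at any time. At midnight it had 11.17, 11.33 and 11.49 log2 in water-limited plants, against 10.97, 10.78 and 10.93 log2 in well-watered plants, and these arrays did not overlap. The midnight change of 0.44 log2 (SE 0.18, adjusted p by limma = 0.289) did not pass, nor did the change of 0.20 in the mean of the times (adjusted p = 0.167, 95% interval 0.01 to 0.38). With array quality weights the pre-dawn change was 0.50 (adjusted p by limma = 0.0107) and the mean change 0.30 (adjusted p = 0.0166). Those weights raised the calls over all 11926 probe sets tested, from 864 to 4252 at pre-dawn and from 1205 to 2160 in the mean.

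SWEET11 had its lowest mean at midnight in both regimes, which is where SWEET13 had its highest mean, though the times of SWEET13 did not pass in well-watered plants. Its midnight means were 11.33 ± 0.16 log2 in water-limited plants and 10.89 ± 0.10 log2 in well-watered plants, and its late-day means, the highest, were 12.18 ± 0.24 and 12.12 ± 0.13. Midday means were 11.98 ± 0.19 log2 in water-limited plants and 11.99 ± 0.20 log2 in well-watered plants, and pre-dawn means were 11.84 ± 0.33 and 11.53 ± 0.26. Times differed in both regimes (F-test of limma, adjusted p = 0.00308 in water-limited and 3.01e-05 in well-watered plants). Midnight was below late day by 0.85 log2 in water-limited plants (1.8-fold) and by 1.23 in well-watered plants (2.34-fold), with adjusted p of 0.000869 and 1.78e-05 by limma. Midday and late day were not told apart in either regime (adjusted p = 0.445 and 0.67), nor were midnight and pre-dawn in water-limited plants (adjusted p by limma = 0.0529).

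SWEET1 (AT1G21460, 260876_at), a glucose carrier of the plasma membrane, was higher under water limitation at pre-dawn and in the mean of the times. At midday it had 7.57, 7.38 and 7.27 log2 in water-limited plants, against 7.06, 7.21 and 7.32 log2 in well-watered plants. At late day it had 7.72, 8.02 and 7.18 log2 in water-limited plants, against 7.25, 7.22 and 7.31 log2 in well-watered plants. The regimes overlapped at both of these daytime samplings, and 1 water-limited late-day array lay below all 3 well-watered ones.

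At midnight SWEET1 had 7.55, 7.55 and 8.10 log2 in water-limited plants, against 7.34, 7.17 and 7.18 log2 in well-watered plants. At pre-dawn it had 7.93, 7.69 and 7.80 log2 in water-limited plants, against 6.97, 7.50 and 6.95 log2 in well-watered plants. The arrays did not overlap at either of these times.

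SWEET1 rose by 0.67 log2 at pre-dawn (SE 0.19, 1.59-fold, adjusted p by limma = 0.0394), with 7.81 ± 0.12 log2 in water-limited plants and 7.14 ± 0.31 log2 in well-watered plants. In the mean of the times it rose by 0.44 log2 (SE 0.10, 1.36-fold, adjusted p by limma = 0.00671), and 11 of 12 water-limited arrays lay above the well-watered mean of their time. The changes at midday, late day and midnight, 0.21, 0.38 and 0.50 log2, did not pass (adjusted p of 0.999, 0.578 and 0.251). The average held without any one array. With the 3 control differences as covariates the pre-dawn change was 0.30 log2 (adjusted p by limma = 0.372) and the average 0.26 (adjusted p = 0.11), and neither passed. The pre-dawn call was lost without the same 4 single arrays as that of SWEET13. Times did not differ past the threshold in water-limited plants (range 0.40 log2, adjusted p by limma = 0.269) or in well-watered plants (range 0.12 log2, adjusted p = 0.945).

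SWEET4 (AT3G28007, 257271_at), a glucose and fructose carrier of the plasma membrane, also passed at pre-dawn. There it had 6.70, 6.54 and 7.02 log2 in water-limited plants, against 5.79, 5.98 and 5.63 log2 in well-watered plants. At midday it had 7.05, 6.79 and 6.26 log2 in water-limited plants, against 6.56, 6.42 and 6.01 log2 in well-watered plants. The pre-dawn arrays did not overlap and the midday arrays did.

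At late day SWEET4 had 6.30, 7.36 and 5.98 log2 in water-limited plants, against 5.79, 5.78 and 6.39 log2 in well-watered plants. At midnight it had 5.71, 5.61 and 5.45 log2 in water-limited plants, against 5.47, 5.61 and 5.72 log2 in well-watered plants. The regimes overlapped at both times, and the midnight values of the regimes covered the same range.

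The pre-dawn change of SWEET4 was 0.96 log2 (SE 0.27, 1.94-fold, adjusted p by limma = 0.0361), and its change in the mean of the times was 0.47 (SE 0.14, 1.38-fold, adjusted p = 0.0322). At midnight the change was −0.01 log2, with a 95% interval of −0.57 to 0.55. The difference between the pre-dawn and midnight changes, 0.97 log2 (SE 0.38), had an adjusted p of 0.763 by limma. The pre-dawn call was lost without any of the 4 arrays named for SWEET13, and the average without any of 11 single arrays, with an adjusted p of at most 0.0689. With the 3 control differences as covariates the pre-dawn change was 0.44 log2 (adjusted p by limma = 0.344) and the average 0.27 (adjusted p = 0.237), and neither passed. In water-limited plants times differed (F-test of limma, adjusted p = 0.00328), with midnight below midday by 1.11 log2, below late day by 0.96 and below pre-dawn by 1.17 (adjusted p = 0.00457, 0.009 and 0.00415). In well-watered plants the F-test did not pass (adjusted p = 0.121), while midnight was below midday by 0.73 log2 (adjusted p by limma = 0.0497).

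SWEET2 (AT3G14770, 256548_at), a vacuolar carrier that holds back sugar in roots, differed between times in both regimes and was lower under water limitation in the mean of the times. At late day, its highest time, it had 8.06, 8.50 and 7.45 log2 in water-limited plants, against 9.09, 8.72 and 8.89 log2 in well-watered plants. At midnight it had 4.03, 5.08 and 4.57 log2 in water-limited plants, against 6.15, 6.40 and 5.43 log2 in well-watered plants. The arrays did not overlap at these 2 times.

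At midday SWEET2 had 5.92, 6.95 and 5.92 log2 in water-limited plants, against 6.24, 5.62 and 6.40 log2 in well-watered plants. At pre-dawn, its lowest time, it had 3.80, 3.00 and 4.05 log2 in water-limited plants, against 3.98, 3.61 and 4.69 log2 in well-watered plants. The regimes overlapped at both times. It was at 5 log2 or more on 16 of 24 arrays.

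The change of SWEET2 was 0.18 log2 at midday and −0.90 at late day, then −1.43 at midnight and −0.47 at pre-dawn, each with an SE of 0.37, and no single time passed (adjusted p by limma = 0.999, 0.456, 0.0921 and 0.451). In the mean of the times it fell by 0.66 log2 (SE 0.18, adjusted p by limma = 0.0284). On 11 of 12 water-limited arrays it lay below the well-watered mean of their time. This mean takes in the pre-dawn values, which all lay under 5 log2, so no fold is given. The call in the mean was lost without any of 7 single arrays, with an adjusted p by limma of at most 0.0594. It was also lost with no filter on low values (adjusted p = 0.0814) or with the control covariates (adjusted p = 0.125). The midnight change passed without well-watered midnight replicate 3 or water-limited midnight replicate 2, with an adjusted p by limma down to 0.0432. Whether the effect of water on SWEET2 differed between times had an unadjusted p of 0.0371 and an adjusted p of 0.453 in the F-test of limma.

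The means of SWEET2 differed over the day in both regimes, with adjusted p of 2.1e-08 in water-limited and 1.37e-08 in well-watered plants in the F-test of limma. Their spans, 4.38 and 4.81 log2, have as lower end pre-dawn values that all lay under 5 log2, so no fold is given for them. In water-limited plants the order was late day (8.0 ± 0.53 log2), midday (6.26 ± 0.59), midnight (4.56 ± 0.53) and pre-dawn (3.62 ± 0.55), and midnight and pre-dawn were not told apart (adjusted p by limma = 0.0837). In well-watered plants it was late day (8.90 ± 0.19 log2), midday (6.09 ± 0.41), midnight (5.99 ± 0.50) and pre-dawn (4.09 ± 0.55), and midday and midnight were not told apart (adjusted p = 0.885). Midnight was below midday by 1.70 log2 in water-limited plants (adjusted p by limma = 0.00173) and by 0.09 in well-watered plants. The difference between those 2 steps, −1.61 log2 (SE 0.52), did not pass after adjustment (adjusted p = 0.509).

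SWEET17 (AT4G15920, 245524_at), a fructose carrier of the vacuolar membrane, differed between times in both regimes and did not pass the test for water. At midnight it had 9.03, 9.25 and 8.99 log2 in water-limited plants, against 9.35, 9.35 and 9.20 log2 in well-watered plants. At midday it had 7.81, 7.74 and 7.26 log2 in water-limited plants, against 7.34, 7.59 and 7.92 log2 in well-watered plants. All 6 midnight arrays lay above all 6 midday arrays, and the regimes overlapped at every time.

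The midnight mean of SWEET17 was 1.49 log2 above midday in water-limited plants (2.81-fold, adjusted p by limma = 6.31e-06) and 1.68 above it in well-watered plants (3.21-fold, adjusted p = 1.17e-06). In both regimes the late-day mean came next, followed by pre-dawn and midday, and pre-dawn was not told apart from midday (adjusted p by limma = 0.455 and 0.286) or from late day (0.0631 and 0.0817). The change with water was −0.10 log2 in the mean of the times, with a 95% interval of −0.30 to 0.10 (adjusted p by limma = 0.538), and between −0.21 and −0.01 at the single times.

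**Figure D2:**
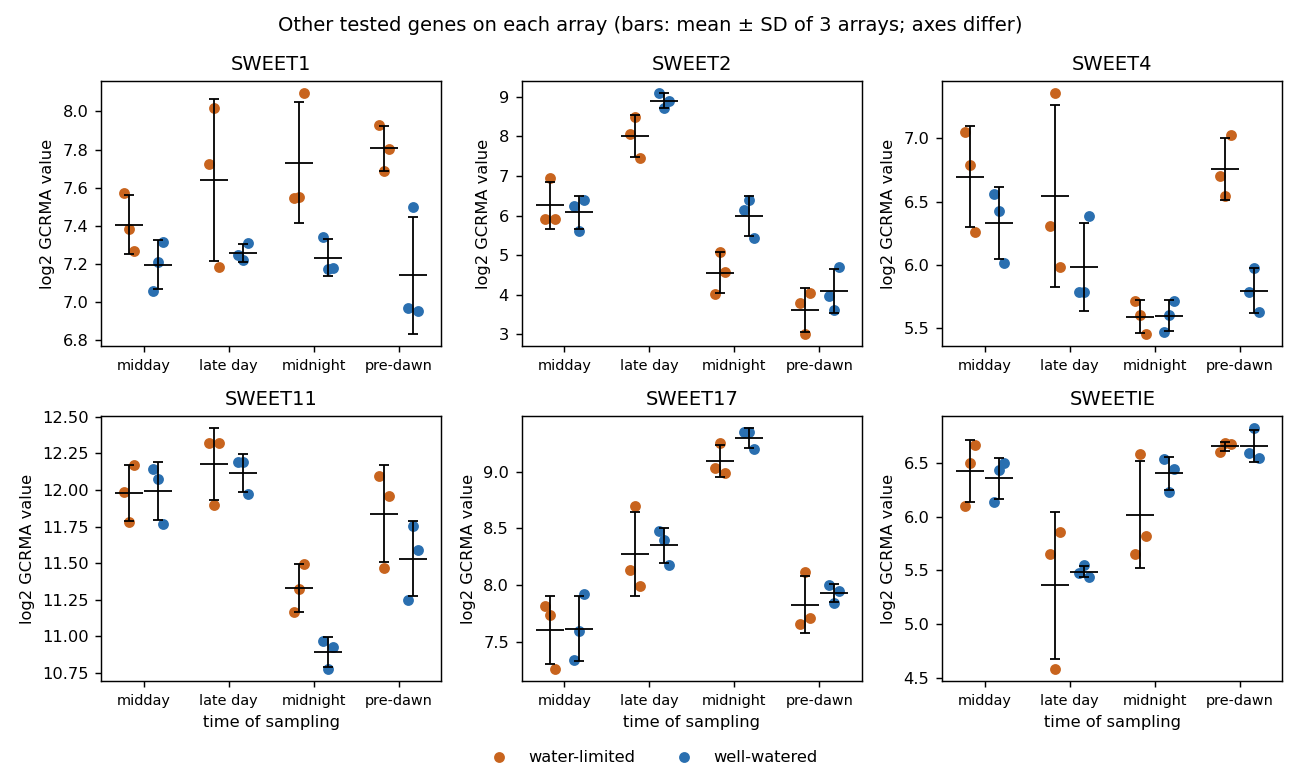
Log2 GCRMA values on each of the 24 arrays (vertical axis, scaled separately for each gene) by time of sampling (horizontal axis) for the other 5 tested SWEET genes and SWEETIE, with water-limited arrays in orange and well-watered arrays in blue; black bars are the mean ± SD of 3 arrays. By their means, SWEET17 is highest at midnight, SWEET11 lowest at midnight and SWEET2 highest at late day in both regimes.

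Over the 6 tested transporters, 3 rose at pre-dawn and none fell, where 7.24% of all probe sets tested passed, 4.1% higher and 3.14% lower. None passed at midday, late day or midnight, where 0%, 0.21% and 0.386% of all probe sets passed in either direction; at an unadjusted p under 0.05 there were 593, 1085 and 1591 of all probe sets. In the mean of the times 3 rose and 1 fell, where 10.1% of all probe sets passed, 5.56% higher and 4.54% lower. The arrays of the regimes did not overlap in 0 of 6 transporters at midday and 2 at late day, where this held for 11.9% and 13.5% of all probe sets. It held for 4 of 6 at midnight and 3 of 6 at pre-dawn, where the shares of all probe sets were 15.5% and 31.8%. The median change of the 6 lay between 0.19 and 0.22 log2 at midday, late day and midnight and was 0.49 at pre-dawn, while that of all probe sets lay between −0.02 and 0.04. The members were chosen with earlier results of these data known, and that choice named SWEET1, SWEET4 and SWEET13. For that reason, and with so few genes, these counts describe the members only.

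**Figure D3:**
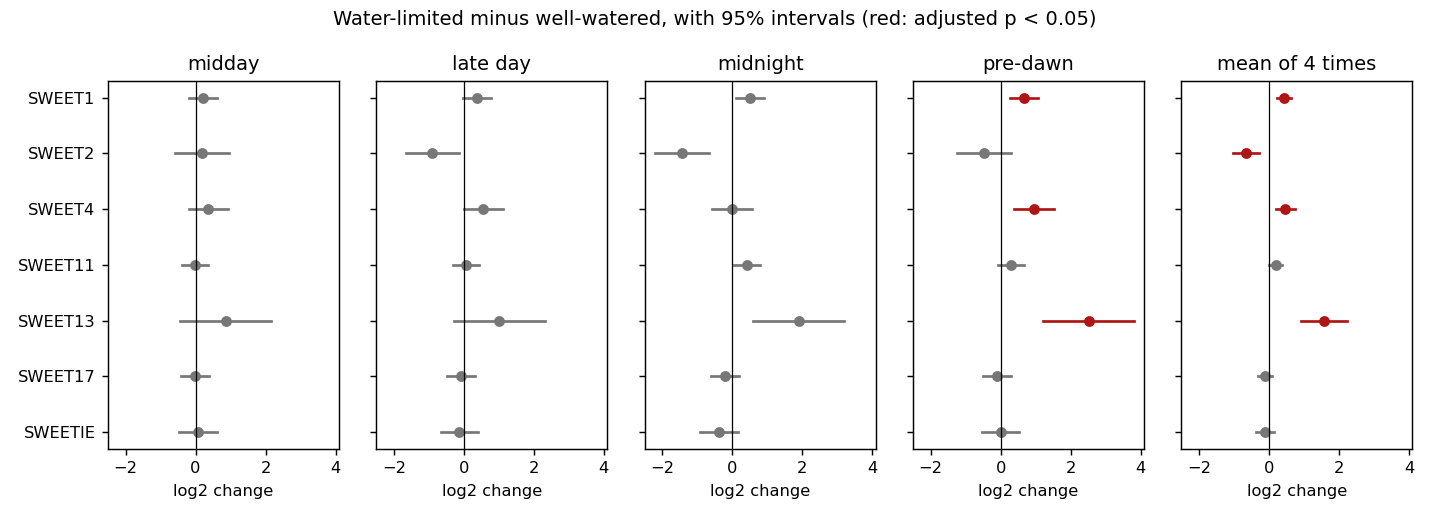
Change of each tested gene in log2 units, water-limited minus well-watered (horizontal axis), at each time and in the mean of the 4 times, with 95% intervals from the fit of 24 arrays; red marks an adjusted p under 0.05. SWEET1, SWEET4 and SWEET13 are red at pre-dawn and in the mean of the times, and SWEET2 is red, on the lower side, in the mean alone.

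The change of SWEET13 in the mean of the times exceeded that of SWEET4 by 1.10 log2, that of SWEET1 by 1.13, that of SWEET11 by 1.38, that of SWEET17 by 1.67 and that of SWEET2 by 2.23. These differences are a description with no test, since the large change of SWEET13 was known when it was set against the others. Probe sets can also differ in how steeply their signal follows the transcript.

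Times differed in 5 of 6 transporters in water-limited plants, where 53.6% of all probe sets passed, and in 3 of 6 in well-watered plants, where 49.9% passed. The time of the highest mean was late day for SWEET2 and SWEET11 and midnight for SWEET13 and SWEET17 in both regimes. For SWEET4 it was pre-dawn in water-limited and midday in well-watered plants, and for SWEET1, whose times did not differ past the threshold, pre-dawn and late day. The pre-dawn and midday means of SWEET4 were not told apart in either regime (adjusted p by limma = 0.913 and 0.193). In well-watered plants the F-test over times did not pass for SWEET4 or SWEET13 either.

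Between single times, the steps to midnight passed most often. Midnight differed from midday in 5 of 6 transporters in water-limited plants and in 3 in well-watered plants, where 24.6% and 26.4% of all probe sets passed. Midnight differed from late day in 5 and 3 of them, where 34.8% and 33.9% passed. Pre-dawn differed from midnight in 2 and 3 (17.6% and 15.4% of all probe sets), and late day from midday in 2 and 2 (22% and 20.4%). Pre-dawn differed from midday in 2 and 1 (19.3% and 17.5%), and from late day in 1 and 2 (44.2% and 42.9%).

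No transporter passed the F-test of whether the water effect differed between times, which 0.0503% of all probe sets passed, and none passed for any of the 6 pairs of times. Over all probe sets, the share that passed for a pair was 0.00839% for late day against midday, 0.0503% for midnight against late day, 0.21% for pre-dawn against late day and 0% for the other 3 pairs.

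Between the transporters, SWEET13 and SWEET1 had a Pearson correlation of 0.65 over the 24 arrays, and SWEET17 and SWEET11 one of −0.72. SWEET17 and SWEET4 had −0.57, SWEET11 and SWEET4 0.52, and SWEET13 and SWEET11 −0.15. The points share their arrays and the scaling of those arrays, and the values are given as a description.

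SWEETIE (AT1G67140, 264472_at) is a large protein outside the SWEET family, whose loss in Arabidopsis alters carbohydrate metabolism and growth. Its change with water was −0.11 log2 in the mean of the times (SE 0.13, adjusted p by limma = 0.626). It was lowest at late day, with 5.36 ± 0.69 log2 in water-limited plants and 5.49 ± 0.06 log2 in well-watered plants, and highest at pre-dawn, with 6.66 ± 0.04 log2 in water-limited plants and 6.66 ± 0.15 log2 in well-watered plants. Times differed in both regimes (F-test of limma, adjusted p = 0.00141 in water-limited and 0.00385 in well-watered plants).

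The other 8 SWEET transporters with a probe set were SWEET3, SWEET6, SWEET7, SWEET8, SWEET9, SWEET10, SWEET14 and SWEET16. A probe set was tested only if at least 3 of the 24 arrays reached 5 log2, and 7 of these 8 stayed under 5 log2 on every array. SWEET9, known from nectaries, was at the lowest value of the table on 23 of 24 arrays, SWEET3 on 21, SWEET8, known from developing pollen, on 18, and SWEET14, a relative of SWEET13 known from anthers, on 17. SWEET6 did not exceed 3.10 log2 and SWEET7 did not exceed 3.04. Such values give no level, only that these probe sets were close to the floor of the array.

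SWEET10 (AT5G50790, 248496_at), the next protein-coding gene to SWEET13 in the TAIR10.1 annotation and known from flowering shoots, lay between 2.51 and 4.13 log2. On the water-limited midnight arrays it had 2.94, 2.51 and 4.13 log2.

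SWEET16 (AT3G16690, 258421_at), a vacuolar sugar carrier related to SWEET17, left its low range only at midnight. It then had 3.60, 4.50 and 3.94 log2 in water-limited plants, against 5.70, 4.51 and 3.63 log2 in well-watered plants, and lay between 3.07 and 3.43 log2 on the 18 arrays of the other times. All 6 midnight arrays were above all 18 others, and the regimes overlapped at midnight. In a fit of all 22746 probe sets without the filter, times passed in well-watered plants (F-test of limma, adjusted p = 0.00765) and not in water-limited plants (adjusted p = 0.168). No size is given, since the values of the other times lay in the low range. SWEET6, which did not exceed 3.10 log2, also passed in well-watered plants in that fit (F-test of limma, adjusted p = 0.0252).

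The family list held 17 loci. SAG29 (AT5G13170), which is SWEET15 and is known from senescing and salt-stressed leaves, is named by its older symbol and lies outside the rule. It had 2.20 log2 on each of the 9 water-limited arrays of midday, midnight and pre-dawn and at most 3.28 at late day, while 2 well-watered arrays, 1 at midday and 1 at midnight, reached 4.78 and 4.77 log2. AtVEX1 (AT5G62850), which is SWEET5, known from pollen, did not exceed 2.80 log2. SWEET12, the partner of SWEET11 in phloem loading, was not analysed here.

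**Figure D4:**
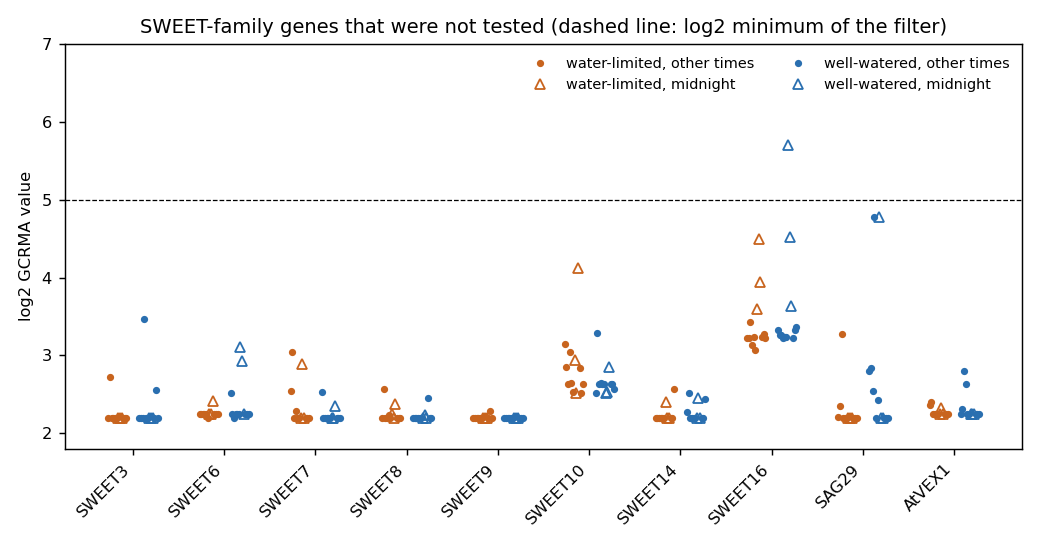
Log2 GCRMA values of 10 SWEET-family genes that were not tested (horizontal axis), with water-limited arrays in orange, well-watered arrays in blue and midnight arrays as open triangles; the dashed line is the minimum of 5 log2 that 3 arrays had to reach. Only SWEET16 has an array above the line, at 5.70 log2, and its 6 midnight arrays are its 6 highest.

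The other genes of sugar transport and sucrose metabolism came from lists of carriers and enzymes, of which only some loci have a named probe set in the annotation used here. None of the 9 sucrose/H+ symporters of the SUC family, which act after the SWEETs in phloem loading, was analysed here. Of 16 tonoplast and plastid carriers 5 were tested, and 1 rose at pre-dawn and in the mean of the times, where 4.1% and 5.56% of all probe sets rose. This was AT5G17010, which encodes a carrier of the vacuolar glucose transporter group. It had 7.85 ± 0.36 log2 in water-limited and 7.01 ± 0.06 log2 in well-watered plants at pre-dawn, a change of 0.85 (SE 0.19, adjusted p by limma = 0.0135), and its mean change was 0.38 (SE 0.10, adjusted p = 0.0161). The pre-dawn call was lost without any of the 4 arrays named for SWEET13, with an adjusted p by limma of at most 0.118, and the mean held without any one array. With the control covariates the changes were 0.73 (adjusted p = 0.142) and 0.29 (adjusted p = 0.16), and neither passed.

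The other 4 tested tonoplast carriers did not pass at any time or in the mean. TMT2, a proton-coupled vacuolar sugar importer, had mean changes of 0.29 (adjusted p by limma = 0.0978) and TMT1 of −0.21 (adjusted p = 0.337). SFP2, an ERD6-like carrier, had changes of −0.91 log2 at midnight and −0.33 in the mean (adjusted p of the mean = 0.0525), and its neighbour SFP1 −0.60 and −0.27. The midnight means of SFP2, 3.68 log2 in water-limited and 4.60 log2 in well-watered plants, lay under 5 log2, so the size of its change is uncertain. Of 20 monosaccharide and polyol carriers 1 was tested, AT5G61520 (STP3), with a mean change of 0.31 (adjusted p by limma = 0.114).

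Of 23 genes of sucrose synthesis and cleavage 3 were tested, and none passed in either direction. ATSPS4F, a sucrose-phosphate synthase, had a pre-dawn mean of 9.96 ± 0.49 log2 in water-limited and 9.03 ± 0.31 log2 in well-watered plants, and a mean change over the times of 0.37 (adjusted p by limma = 0.192). The sucrose-phosphate phosphatase gene AT2G35840 had a mean change of 0.09 and the vacuolar invertase gene AT1G62660 of −0.32. Of 17 starch genes 2 were tested, PWD and DPE1, with mean changes of 0.12 and 0.05 that did not pass. No listed gene of sugar sensing and starvation and no phloem marker was analysed here, and of 7 senescence markers WRKY53 alone was tested, with a mean change of −0.20 (adjusted p by limma = 0.354).

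**Figure D5:**
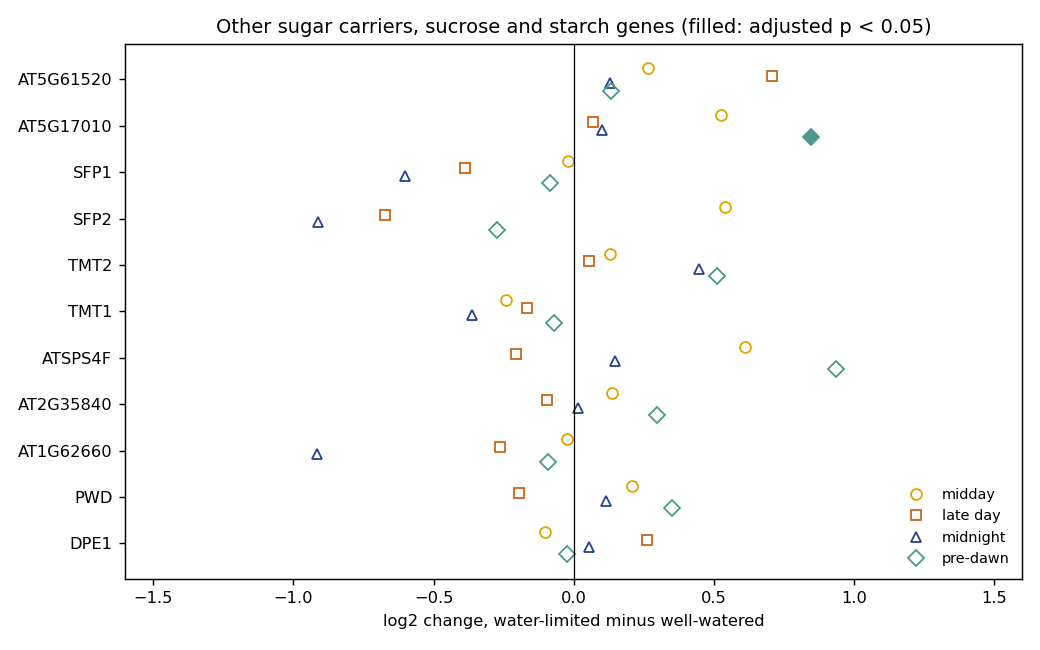
Change with water in log2 units, water-limited minus well-watered (horizontal axis), of 11 tested genes for other sugar carriers, sucrose and starch turnover (vertical axis), with a symbol for each time of sampling; filled symbols have an adjusted p under 0.05. The pre-dawn change of AT5G17010, 0.85 log2, is the one filled symbol.

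The probe sets most like each transporter were sought by Pearson correlation over the 24 arrays among 6292 other tested probe sets with 1 gene. Those most like SWEET13 were ARD4 (AT5G43850), an acireductone dioxygenase of the methionine cycle, with r = 0.89, PGRL1B (AT4G11960), a protein of cyclic electron flow, with 0.89, AT1G80130 with 0.87, the vacuolar processing enzyme gene BETA-VPE (AT1G62710) with 0.87 and AT4G01390 with 0.87. Those most like SWEET1 were AT5G54855 (0.86), AT5G66440 (0.82), AT3G12260 (0.81), PHOS32 (0.79) and the transcription factor gene bZIP44 (0.79). For SWEET4 they were AT1G43910 (0.85), AT1G03040 (0.83), AT3G23160 (0.82), AT5G40690 (0.81) and the asparaginase gene ASPGA1 (0.79).

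The transporters with a strong daily pattern had closer matches. For SWEET2 they were AT1G03610 (0.96), AT1G44000 (0.96), AT5G22390 (0.95), the xyloglucan endotransglucosylase gene EXGT-A3 (0.95) and AT5G13100 (0.94). For SWEET17 they were AT5G67390 (0.95), AT3G47540 (0.92), AT1G18740 (0.92), the plastid thioredoxin gene TRXF2 (0.92) and AT1G76240 (0.92). For SWEET11 they were AT1G13640 (0.92), AT3G01350 (0.91), AT4G14900 (0.91), AT3G13510 (0.90) and AT1G61660 (0.90). The 24 arrays fall into 8 groups, and correlations between and within groups were not separated.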

How the data were processed

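Per the submitters' processing notes, the authors computed the deposited log2 values, 1 for each of 22810 probe sets on each of 24 Affymetrix arrays, with GCRMA; no version or settings of it were given in the sources used here. Trizol was used to extract the RNA and biotin to label it, per the labels' protocols. The number of arrays limits the precision.

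The 64 control probe sets were set aside, and probe sets with at least 5 log2 on at least 3 arrays were tested, 11926 in all. Gene names came from the platform annotation, where 13513 probe sets have 1 gene, 503 several and 8730 none, and from the TAIR10.1 annotation by gene ID. No sequence was available to print. In limma 3.58.1 (R 4.3.3), 1 linear model held the 8 group means with a shared spread (16 residual and 4.57 prior degrees of freedom). Tests were two-sided, with Benjamini-Hochberg adjustment over all probe sets of a contrast. A planned permutation test of SWEET13 against the other transporters is not reported, since SWEET13 was chosen with its change known. The model was tested on simulated data. All p-values measure the spread between arrays labelled as biological replicates.

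The members and lists were chosen with earlier results of these data known. Every SWEET gene was named, members of the other lists if tested, and for likeness the 5 highest correlations. SWEETIE was left out of the counts after the annotation was read. Arrays with equal replicate numbers were not treated as pairs in the main fit. The correlation of their deviations from the group means lay between −0.54 and 0.09. With 3 arrays in a group, this cannot decide whether equal numbers shared a growth run.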

Additional observations from a re-analysis of the deposited data

How the results depend on the processing

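Results were recomputed with no filter, a mean of at least 6 log2, trended robust moderation, median centring, quantile normalization, array quality weights, the replicate block, single-gene probe sets alone, the arrays of 1 time alone, the control differences as covariates, and without each array. The alternatives for pairwise differences were chosen after seeing the data. The count of 3 SWEET genes at pre-dawn became 0 with no filter, with the replicate block, with the covariates and with the pre-dawn arrays alone, and 0 to 3 without 1 array; the block changed SWEET13 to an adjusted p of 0.0696, SWEET1 to 0.128 and SWEET4 to 0.101 there, and SWEET4 to 0.0834 in the mean of the times. The pre-dawn count over all probe sets fell as well, from 864 of 11926 to 547 of 22746 with no filter. It was 199 with the block, 15 with the covariates and 7 with the pre-dawn arrays alone. The count of 4 in the mean of the times became 2 with no filter and 1 with the covariates, and 2 to 4 without 1 array. Over all probe sets that count went from 1205 to 763 of 22746 with no filter and to 312 with the covariates. The midnight count of 0 was 0 to 1 without 1 array. The well-watered count of genes that differ between times was 3 of the 6 tested transporters, and 5 of 6 with array weights. With no filter it was 5 of all 14 transporters, where SWEET6 and SWEET16, both left out by the filter, also passed. Over all probe sets it was 5737 of 22746 with no filter and 8045 of 11926 with array weights, against 5954 of 11926. With array weights 1 pairwise difference between water effects passed, against 0. SWEET13 in the mean of the times passed under every alternative, with changes between 1.37 and 1.74 log2. The alternatives for AT5G17010 were also chosen after seeing the data.

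Some changes that had not passed turned sign. With the covariates the late-day change of SWEET1, 0.38 log2, became −0.0537, and the change was 0.27 for SWEET17 and −0.16 for SWEETIE at midday, 0.44 for SWEETIE at late day, 0.0600 for SWEET4 at midnight, and 0.52 at pre-dawn and 0.11 in the mean for SWEETIE. SWEETIE had 0.14 at late day and 0.0177 at pre-dawn with array weights. SWEET4 at midnight had 0.0129 with median centring and 0.014 with quantile normalization. Without 1 array, midday changes ranged from −0.17 to 0.35 for SWEET2, −0.13 to 0.0816 for SWEET11, −0.15 to 0.16 for SWEET17 and −0.0529 to 0.23 for SWEETIE. Late-day changes ranged from −0.015 to 0.20 for SWEET11, −0.29 to 0.0628 for SWEET17 and −0.38 to 0.26 for SWEETIE, midnight changes of SWEET4 from −0.0703 to 0.0617, and pre-dawn changes of SWEETIE from −0.056 to 0.0832. The cause was not tested. Over all probe sets, the pre-dawn count of 864 was 91 once water-limited pre-dawn replicate 1 was left out, 1793 once replicate 2 was, 7 with the pre-dawn arrays alone and 4252 with array weights. The count of 1205 in the mean of the times was 312 with the covariates and 2160 with array weights.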
